A study of Rattus norvegicus with 12 samples.

Results

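The antioxidant response controlled by the transcription factor NRF2 was followed in INS-1E cells through 10 genes. They were taken by symbol from the count table: Nfe2l2, Keap1, Hmox1, Nqo1, Gclm, Txnrd1, Srxn1, Sod1, Sod2 and Cat. The table held 34034 gene symbols, of which 14324 were expressed highly enough to be tested, and all 10 genes were among these. INS-1E is an established, insulin-secreting rat insulinoma line used as a model of the pancreatic β-cell, so all groups come from 1 tumour-derived cell line of wild-type genotype and hold none of the immune or vascular cells of an islet. PolyA RNA was sequenced in 4 groups of 3 libraries, which the labels call biological replicates. Untreated cells received no cytokine. IL-1βlow cells were preconditioned with IL-1β at 10 pg/ml for 72 h. CYT cells received a pro-inflammatory mixture of IL-1β at 100 pg/ml with IFN-γ at 5 ng/ml for 16 h. IL-1βlow + CYT cells were preconditioned for 72 h, given fresh medium and then challenged with the same mixture for 16 h. The design asks what the mild preconditioning does on its own, what the challenge does, and how the preconditioned cells meet the challenge.

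NRF2, the protein made from Nfe2l2, drives genes that detoxify oxidants and electrophiles. In unstressed cells KEAP1 binds NRF2 and presents it to a cullin-3 ubiquitin ligase, so that NRF2 is degraded. Oxidants modify cysteines of KEAP1, NRF2 then escapes degradation, pairs with small MAF proteins and binds antioxidant response elements (ARE) near its target genes. Because this control acts on the protein, the mRNA of Nfe2l2 is not a measure of NRF2 activity. β-cells are known for low levels of catalase and glutathione peroxidase, and for sensitivity to the nitric oxide and oxidants that cytokines elicit in them. Manganese superoxide dismutase (Sod2) and heme oxygenase 1 (Hmox1) are known as genes that inflammatory cytokines induce.

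The ARE is the sequence through which NRF2 acts, so the promoters of the 10 genes were searched for its core, TGACNNNGC, on both strands. RefSeq promoter windows of rat build GRCr8, running from 250 bases before to 50 bases after the annotated start, were found for 9 of the 10 genes (10 windows, since Txnrd1 has more than 1 start). Hmox1 was not in the table. The core was found for 4 genes, in 4 of the 10 windows, while 12.1% of the 33469 windows of this length hold it. The 4 stretches are shown because they mark which of the genes described next carry these letters close to their start; they are written 5′ to 3′ on the strand of the gene, with the match in capitals.
Nfe2l2 (chr3:81028950-81028971, minus strand): gactagccatTGACGCCGCctc
Gclm (chr2:213031938-213031996, plus strand): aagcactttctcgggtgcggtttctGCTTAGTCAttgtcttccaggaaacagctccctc
Txnrd1 (chr7:22755949-22756007, minus strand): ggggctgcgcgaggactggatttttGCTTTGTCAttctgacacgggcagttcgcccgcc
Sod2 (chr1:50050170-50050228, minus strand): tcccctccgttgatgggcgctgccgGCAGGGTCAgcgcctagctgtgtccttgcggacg
In Nfe2l2 the core lies on the strand of the gene, at bases 39 to 47 counted from the start base as 1. In Gclm, Txnrd1 and Sod2 it lies on the opposite strand, at bases -172 to -164, -78 to -70 and -35 to -27. The κB motif, the binding sequence of NF-κB, was in none of the 10 windows and in 7.51% of all windows of this length. A match is only a description of the letters in these windows, and ARE and κB sites further away were not searched.

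The 12 libraries held 15812640 to 20246806 counts each (median 17461925.5). Levels are given as CPM, counts scaled to the size of the library, after TMM normalization, as mean ± SD with n = 3. A gene was called higher or lower when its adjusted p in edgeR's quasi-likelihood test was under 0.01 and its log2 fold change passed a minimum, 0.6 for IL-1βlow against untreated and 1 elsewhere. All 8 β-cell markers were above 1 CPM in every library. Their summed level was 42010 to 48850 CPM in untreated cells, 37500 to 43990 in IL-1βlow, 13680 to 14630 in CYT and 19480 to 24950 in IL-1βlow + CYT, a sum carried by Ins1, Ins2 and Chga. Slc2a2, the glucose transporter among them, stood at 434 ± 51.3, 352 ± 45.1, 397 ± 64.1 and 596 ± 103 CPM in the same order. The part of these markers in the results was not tested. In bulk libraries such as these, fewer cells of a type and less RNA per cell cannot be told apart. The summed level of 5 leukocyte markers was 0.296 to 1.15 CPM in untreated and 0.307 to 0.987 in IL-1βlow libraries. It was 1.98 to 3.15 in CYT and 2.98 to 4.52 in IL-1βlow + CYT libraries, with Ptprc, Cd14 and Itgam at 0 in all 12. Mean levels of Adgre1 were 0.019, 0, 1.35 and 2.79 CPM in the same order, and those of Cd68 were 0.705, 0.585, 1.08 and 0.799. The 4 markers of other islet cells summed to 187 to 368, 157 to 260, 25.4 to 64.9 and 74.5 to 152 CPM in the same order, nearly all of it Gcg, the glucagon gene, and 6 endothelial, stromal and duct markers together stayed at or under 2.49 CPM.

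Under IL-1βlow alone the log2 fold changes of the 10 genes ran from -0.33 for Gclm to 0.27 for Nqo1. The 95% intervals of Hmox1 (-0.26 to 0.64), Nqo1 (-0.18 to 0.72) and Gclm (-0.67 to 0.01) reached past the minimum of 0.6. A change of that size thus lies within these intervals. None of the 10 was called by edgeR's quasi-likelihood test, beside 0.433% of all genes tested. Only 1 of the 10, Srxn1, had an unadjusted p under 0.05, beside 13.8% of all genes. edgeR's exact test and DESeq2 also called none of them. The CYT challenge moved 3 of the 10, Hmox1 and Sod2 up and Nqo1 down, beside 21.6% of all genes called in either direction. In preconditioned cells after the challenge, 4 of the 10 differed from CYT cells, Nfe2l2, Hmox1 and Sod2 lower and Nqo1 higher, beside 12.5% of all genes. Against untreated cells only Sod2 of the 10 was called in IL-1βlow + CYT, beside 5.99% of all genes. Against IL-1βlow cells it was again only Sod2, beside 3.88% of all genes. The interaction, which asks whether the response to CYT differed with and without preconditioning, was called for 2 of the 10, Nfe2l2 and Hmox1, both lower, beside 10.7% of all genes. Without the fold minimum 4 of the 10 passed the interaction's p threshold, beside 22.6% of all genes.

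**Figure D1:**
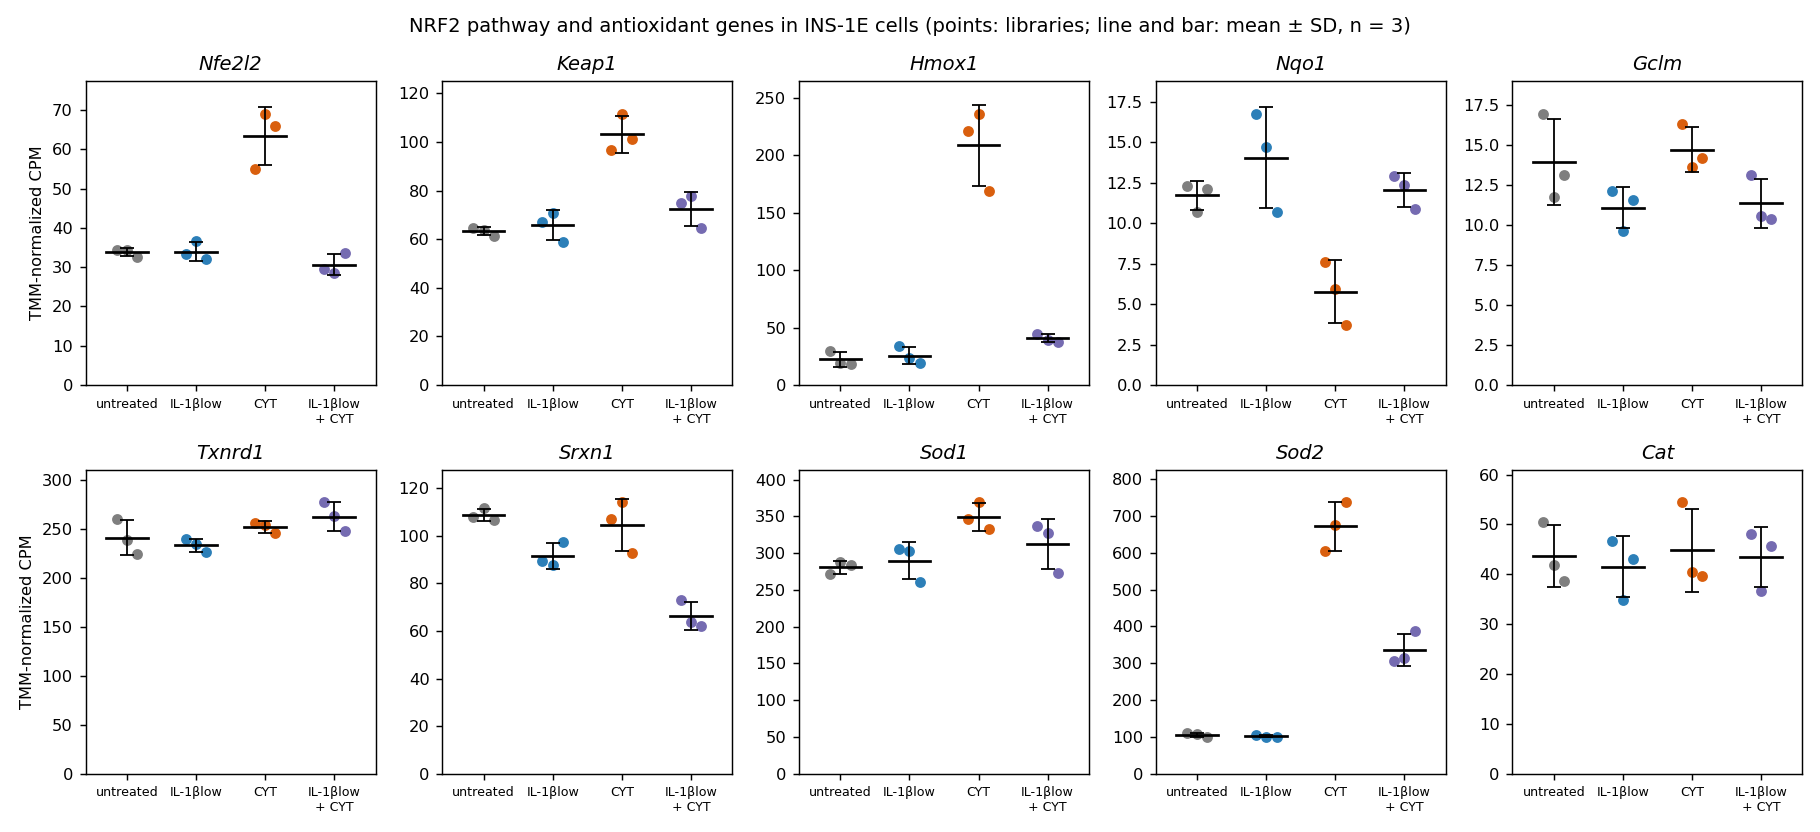
TMM-normalized CPM (linear axes from 0, a separate scale for each gene) of the 10 genes in the 4 groups. Points are libraries, and the line and bar are the mean and SD of 3. Hmox1, Sod2, Nfe2l2 and Keap1 stand highest in CYT and Nqo1 stands lowest there, with no overlap with the other groups, while all 4 groups overlap for Cat.

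Both regulators, Nfe2l2 and Keap1, stood highest in CYT cells and near their untreated level in the other groups. Nfe2l2, the gene of NRF2 itself, stood at 34.4, 34.4 and 32.7 CPM in untreated libraries, 33.2, 36.7 and 32.0 in IL-1βlow, 55.0, 69.1 and 66.0 in CYT, and 29.6, 28.6 and 33.7 in IL-1βlow + CYT. The CYT libraries were all above every other library, and the other groups overlapped. From 33.8 ± 0.984 CPM in untreated to 63.4 ± 7.38 in CYT the difference was 0.90 on the log2 scale (SE 0.10, a fold of 1.87, adjusted p = 4e-06 in edgeR's quasi-likelihood test), which passed the p threshold but not the fold minimum. In IL-1βlow + CYT the level, 30.6 ± 2.70 CPM, was lower than in CYT, with a log2 fold change of -1.05 (SE 0.10, adjusted p = 2.23e-06), and did not pass the test against untreated (-0.14, adjusted p = 0.362) or IL-1βlow (-0.15, adjusted p = 0.46). The response to CYT was thus smaller after preconditioning, by 1.05 on the log2 scale (interaction -1.05, SE 0.15, adjusted p = 0.000119). Both calls rest on CYT replicate 2, since without it the estimates were -0.98 against CYT and -0.99 for the interaction, just under the minimum.

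Keap1 encodes the sensor that holds NRF2 back. Its levels were 64.6, 63.8 and 61.3 CPM in untreated, 67.2, 71.0 and 59.0 in IL-1βlow, 96.7, 112 and 101 in CYT and 75.1, 77.7 and 64.5 in IL-1βlow + CYT. As for Nfe2l2, the 3 CYT libraries were the highest and the other 3 groups overlapped. The CYT difference was 0.71 on the log2 scale (SE 0.10, adjusted p = 1.9e-05 in edgeR's quasi-likelihood test), that between IL-1βlow + CYT and CYT was -0.51 (adjusted p = 0.000504), and the interaction was -0.56 (adjusted p = 0.00499). All 3 passed the p threshold and fell short of the fold minimum of 1, so none was called. Over the 12 libraries, genes were compared by the root mean square difference on the log2 scale after centring on the untreated mean. Of the other 9 genes, Keap1 was the one nearest to Nfe2l2 (0.230). Keap1 itself lay nearer to Sod1 (0.202).

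Hmox1 had the largest change of the 10. It encodes heme oxygenase 1, which breaks heme down to biliverdin, carbon monoxide and iron, and is a target of NRF2 that BACH1 represses. The untreated libraries held 29.9, 19.2 and 18.2 CPM and the IL-1βlow libraries 33.8, 23.3 and 19.4. With CYT the levels were 221, 236 and 169 CPM, and in IL-1βlow + CYT they were 44.6, 39.5 and 37.8. Every CYT library exceeded every other by a wide margin, and the IL-1βlow + CYT libraries all stood above the untreated and IL-1βlow ones. Means were 22.4 ± 6.49 CPM in untreated and 209 ± 35.2 in CYT, a 9.29-fold rise (log2 fold change 3.22, SE 0.22, adjusted p = 1.48e-08). IL-1βlow + CYT cells, at 40.6 ± 3.52 CPM, were lower than CYT cells by 2.36 on the log2 scale (log2 fold change -2.36, SE 0.21, adjusted p = 6.95e-07), and the interaction was -2.55 (SE 0.29, adjusted p = 2.43e-05). Against untreated cells the estimate in IL-1βlow + CYT was 0.85 (SE 0.21, adjusted p = 0.00823), under the fold minimum, and against IL-1βlow it was 0.66 (adjusted p = 0.0485). The first of these was 1.09 and called when untreated replicate 1, the highest untreated library, was left out. In GRCr8 the gene overlaps LOC134483111, and the strand setting used in counting was not given in the sources used here, so reads of both cannot be told apart.

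Nqo1 moved the other way. It encodes a quinone reductase that is one of the standard readouts of NRF2 activity. Levels were 12.3, 10.7 and 12.1 CPM in untreated, 16.8, 14.7 and 10.7 in IL-1βlow, 7.61, 5.95 and 3.73 in CYT, and 12.9, 12.3 and 10.9 in IL-1βlow + CYT. The CYT libraries were the 3 lowest of the 12, and the remaining groups overlapped. Nqo1 was lower in CYT, at 5.76 ± 1.94 CPM, than in untreated cells, at 11.7 ± 0.870 (log2 fold change -1.03, SE 0.22, adjusted p = 0.00105 in edgeR's quasi-likelihood test). In IL-1βlow + CYT, at 12.03 ± 1.04 CPM, it was higher than in CYT (log2 fold change 1.07, SE 0.22, adjusted p = 0.00112), and the difference from untreated was 0.04 (95% interval -0.41 to 0.49, adjusted p = 0.916). The interaction, 0.80 (SE 0.30, adjusted p = 0.052), was not called. Both called estimates lie close to the minimum: the first was -0.76 without CYT replicate 3 and -0.98 without untreated replicate 1, and the second was 0.80 without CYT replicate 3 and 0.98 without IL-1βlow + CYT replicate 1. RLE size factors (-0.995), DESeq2 (-0.995), a fit of the compared groups alone (-0.996) and a fit without the low-count filter (-0.96) also left the first just under it. With glmTreat, which tests against the minimum itself, neither was called. The gene was counted 73 to 140 times per CYT library and 173 to 327 times in the others.

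Gclm, Txnrd1 and Srxn1 were not called in any of the 6 comparisons. Gclm encodes the modifier subunit of glutamate-cysteine ligase, the first enzyme of glutathione synthesis. Its levels were 17.0, 11.7 and 13.1 CPM in untreated, 12.1, 9.63 and 11.5 in IL-1βlow, 16.3, 13.6 and 14.2 in CYT and 13.1, 10.5 and 10.4 in IL-1βlow + CYT. Replicate 1 was the highest library in every group, and the 2 challenged groups did not overlap. The CYT difference was 0.08 (95% interval -0.26 to 0.41) and that between IL-1βlow + CYT and CYT was -0.37 (95% interval -0.71 to -0.03, adjusted p = 0.0625).

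Txnrd1 encodes cytosolic thioredoxin reductase, which keeps thioredoxin reduced. It held 259, 239 and 224 CPM in untreated, 239, 234 and 226 in IL-1βlow, 256, 254 and 245 in CYT and 277, 263 and 247 in IL-1βlow + CYT. The CYT estimate of 0.06 had a 95% interval of -0.10 to 0.23, and that of IL-1βlow + CYT against IL-1βlow was 0.17 (95% interval 0.01 to 0.33, adjusted p = 0.185), where the groups did not overlap. With a median SD of 4.20% of the group mean it varied least among the 10 within groups, and its highest group mean was 1.13 times its lowest. Txnrd1 overlaps Eid3 and 3 LOC genes in GRCr8, so some of its reads may belong to them.

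Srxn1 encodes sulfiredoxin, which restores over-oxidized peroxiredoxins. Levels were 108, 112 and 107 CPM in untreated, 89.2, 87.7 and 97.5 in IL-1βlow, 107, 114 and 92.6 in CYT, and 73.1, 63.7 and 62.0 in IL-1βlow + CYT. The preconditioned and challenged libraries were the 3 lowest of the 12, and the IL-1βlow libraries all lay below the untreated ones. Against CYT the log2 fold change of IL-1βlow + CYT was -0.66 (SE 0.09, adjusted p = 4.9e-05 in edgeR's quasi-likelihood test), against untreated -0.72 (SE 0.09, adjusted p = 4.96e-05) and against IL-1βlow -0.47 (adjusted p = 0.00302), each past the p threshold and short of the fold minimum. CYT alone gave -0.06 (95% interval -0.25 to 0.14), IL-1βlow alone -0.25 (SE 0.09, adjusted p = 0.257) and the interaction -0.41 (adjusted p = 0.0242). Srxn1 was thus the 1 gene of the 10 whose levels in IL-1βlow + CYT stood apart below those of the other 3 groups.

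Superoxide dismutases turn superoxide into hydrogen peroxide, which catalase and peroxidases then remove. Sod2, the mitochondrial manganese enzyme, stood at 109, 108 and 99.8 CPM in untreated, 106, 100.3 and 101 in IL-1βlow, 604, 675 and 737 in CYT and 307, 313 and 386 in IL-1βlow + CYT. Both challenged groups lay above both unchallenged groups, with the preconditioned libraries between. The rise with CYT was 6.36-fold, from 106 ± 5.19 to 672 ± 66.5 CPM (log2 fold change 2.67, SE 0.10, adjusted p = 8.46e-11 in edgeR's quasi-likelihood test). Preconditioned cells also rose, to 335 ± 44.1 CPM, which was 3.17-fold above untreated (log2 fold change 1.67, SE 0.10, adjusted p = 2.07e-08) and 1.71 above IL-1βlow on the log2 scale (adjusted p = 2.22e-08). The difference of IL-1βlow + CYT from CYT was -1.003 (SE 0.10, adjusted p = 1.99e-06), at the fold minimum itself. It was no longer called, at -0.9999, -0.96, -0.97 and -0.95, without CYT replicate 2, CYT replicate 3, IL-1βlow + CYT replicate 1 or IL-1βlow + CYT replicate 2, in that order. The interaction was -0.96 (SE 0.14, adjusted p = 0.000169), past the p threshold and short of the fold minimum. It passed that minimum, at -1.01 to -1.07, without untreated replicate 1, untreated replicate 2, CYT replicate 1 or IL-1βlow + CYT replicate 3 and with no filter on low counts, and, at -1.004, without IL-1βlow replicate 2.

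Sod1, the cytosolic copper and zinc enzyme, held 271, 288 and 284 CPM in untreated, 306, 304 and 261 in IL-1βlow, 347, 369 and 332 in CYT and 337, 327 and 273 in IL-1βlow + CYT. The CYT libraries all stood above the untreated ones and overlapped with IL-1βlow + CYT. The CYT difference was 0.31 (SE 0.09, adjusted p = 0.00883 in edgeR's quasi-likelihood test), under the fold minimum, and no other comparison passed the p threshold. Cat, the peroxisomal catalase, held 50.5, 41.8 and 38.6 CPM in untreated, 46.8, 34.8 and 43.0 in IL-1βlow, 54.4, 40.4 and 39.6 in CYT and 48.2, 36.7 and 45.7 in IL-1βlow + CYT. All 4 groups overlapped, and the group means spanned a ratio of 1.08. The CYT estimate was 0.04 with a 95% interval of -0.29 to 0.37, so a doubling or a halving lies outside the interval. Cat overlaps LOC134486130 in GRCr8.

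**Figure D2:**
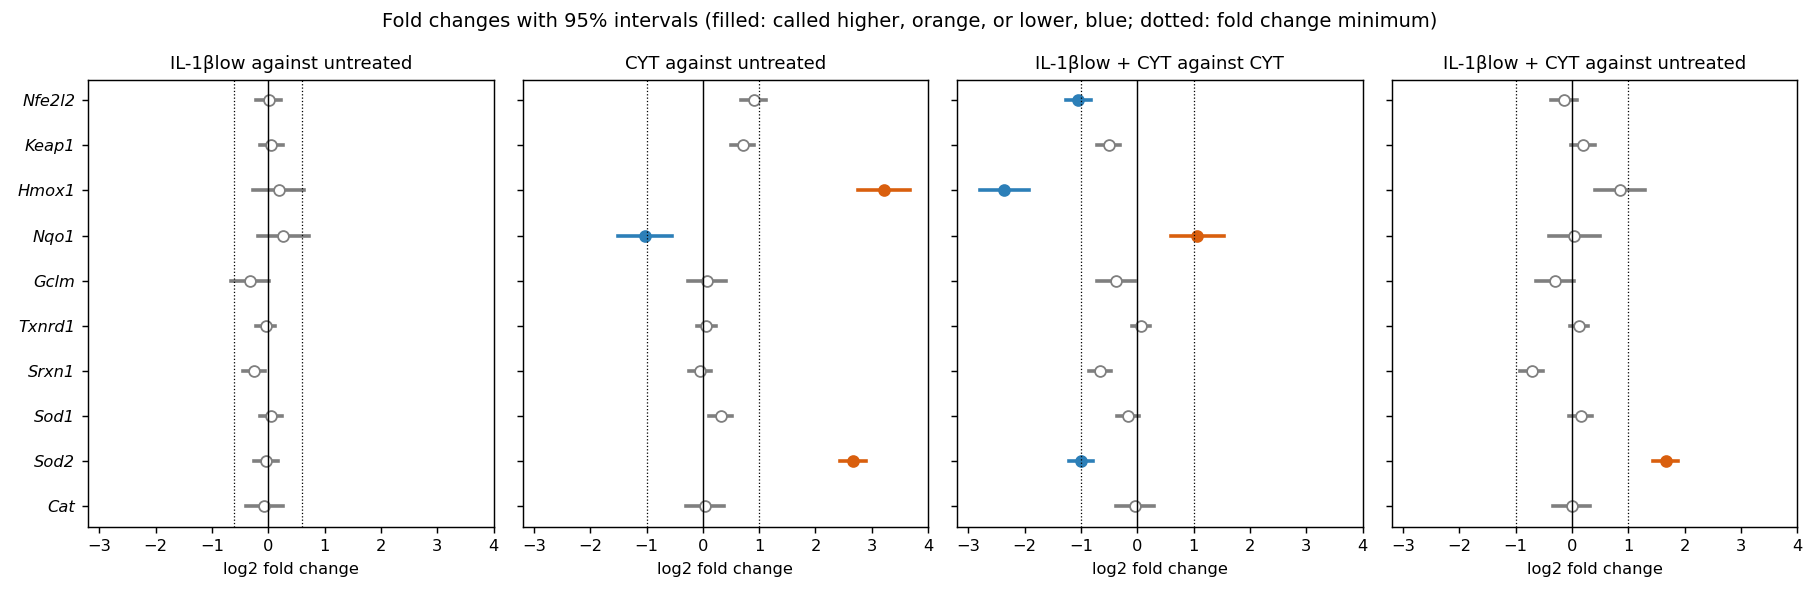
Log2 fold changes of the 10 genes in 4 comparisons, with 95% confidence intervals as bars. Orange and blue filled points are called higher and lower, open points are not called, and dotted lines mark the fold minimum. Hmox1 (3.22) and Sod2 (2.67) stand out on the right for CYT, and the estimates of Nqo1, and of Nfe2l2 and Sod2 against CYT, lie close to a dotted line.

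The response to CYT was then set side by side in cells without preconditioning (CYT against untreated) and with it (IL-1βlow + CYT against IL-1βlow), which share no library. Hmox1 gave 3.22 and 0.66, Sod2 2.67 and 1.71, Nfe2l2 0.90 and -0.15, Keap1 0.71 and 0.14, and Nqo1 -1.03 and -0.23, so these 5 estimates were nearer to 0 after preconditioning. So were those of Sod1 (0.31 and 0.11) and Gclm (0.08 and 0.03), while those of Srxn1 (-0.06 and -0.47), Txnrd1 (0.06 and 0.17) and Cat (0.04 and 0.06) were farther from 0. The difference between the 2 responses was called for Hmox1 and Nfe2l2, passed only the p threshold for Sod2 and Keap1, and passed neither for the other 6. Sod2 was the 1 gene of the 10 called in both. Over the 10 genes the median log2 fold change of CYT was 0.20 without preconditioning, beside -0.04 for all genes tested, and 0.09 with it, beside -0.01.

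**Figure D3:**
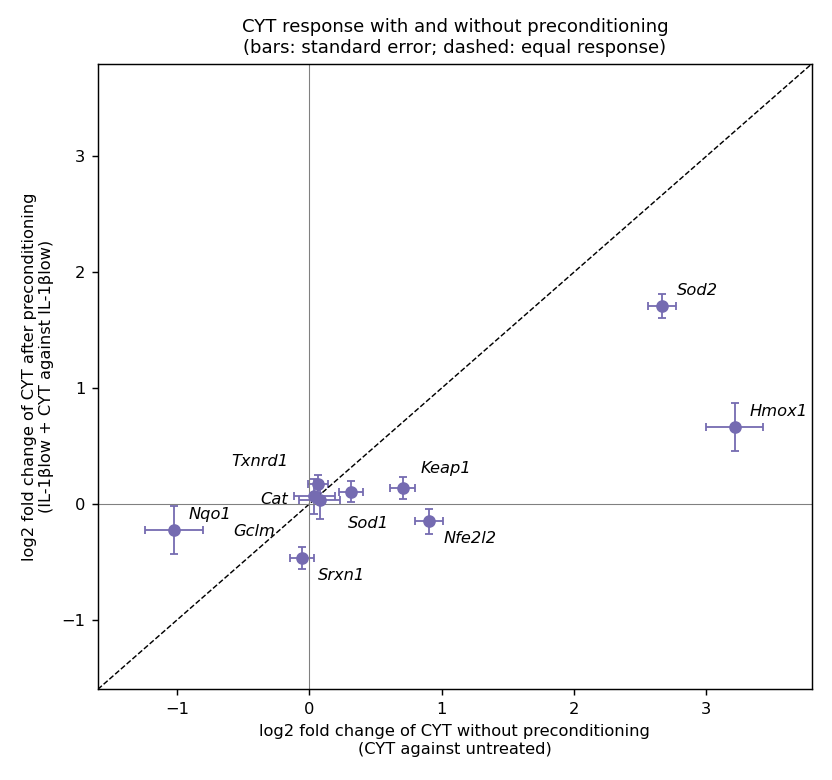
Log2 fold change of CYT without preconditioning (x axis) and after IL-1βlow (y axis) for the 10 genes. Bars are standard errors and the dashed line marks an equal response. Hmox1 (3.22, 0.66) and Sod2 (2.67, 1.71) lie below the line on the right, and Nqo1 (-1.03, -0.23) lies above it on the left.

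The other genes of the pathway were described from 7 lists of 70 genes, of which 60 were tested. With CYT, 11 of the 60 were called higher and 4 lower, where 10.0% of all genes tested were higher and 11.6% lower, and their median log2 fold change was 0.16 beside -0.04 for all genes. Without Gsta4 and Osgin1, which no untreated library held above 1 CPM, 9 were higher. Between IL-1βlow + CYT and CYT, 4 were higher and 8 lower, beside 6.54% and 5.92% of all genes, with a median of -0.08 beside 0.02. The 8 include Osgin1, which passed the filter on low counts only through CYT, so that its call is no support for the list. IL-1βlow alone gave no call by edgeR's quasi-likelihood test, while 6 of the 60 had an unadjusted p under 0.05, beside 13.8% of all genes, and DESeq2 and edgeR's exact test each called 1. IL-1βlow + CYT differed from untreated in 5, 4 higher and 1 lower, beside 3.85% and 2.14% of all genes. Without Gsta4, 3 were higher. IL-1βlow + CYT differed from IL-1βlow in 4, 3 higher and 1 lower, beside 2.92% and 0.963% of all genes. Here 2 were higher without Gsta4. In all, 15 of the 60 were called for CYT, near the 21.6% of all genes. For IL-1βlow + CYT it was 5 against untreated and 4 against IL-1βlow, near the 5.99% and 3.88% of all genes. These totals include Gsta4, and the first also Osgin1.

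In the list of 12 genes of NRF2 regulation, 4 rose with CYT and 1 fell, against the 10.0% and 11.6% of all genes given above, which hold for each list that follows, and the median was 0.86. Maff, a small MAF protein and thus a binding partner of NRF2 and of its repressors BACH1 and BACH2, rose from 4.36 ± 1.01 to 105 ± 27.5 CPM (log2 fold change 4.59, adjusted p = 3.39e-10 in edgeR's quasi-likelihood test). It was 12.2 ± 1.28 CPM in IL-1βlow + CYT, which was lower than in CYT (-3.11) and still higher than in untreated (1.48) and IL-1βlow (1.23). Sqstm1, the autophagy receptor p62 that competes for KEAP1, rose from 657 ± 18.4 to 2381 ± 125 CPM (1.86) and was lower in IL-1βlow + CYT, at 893 ± 81.7 (-1.41 against CYT). Nfe2l1, a relative of NRF2 known for control of proteasome genes, rose by 1.03 on the log2 scale, and Mafk by 1.22. Cul3, the cullin of the KEAP1 ligase, fell, with a log2 fold change of -1.07 (adjusted p = 0.000609), and its libraries spread widely, from 39.6 to 68.4 CPM within IL-1βlow. Mafk, Cul3 and Bach2 each overlap a LOC gene in GRCr8. Against CYT, 2 of the 12 were lower in IL-1βlow + CYT, Maff and Sqstm1, beside 5.92% of all genes. The interaction was called lower for 3, Maff, Sqstm1 and Bach2, beside 5.20% of all genes.

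Of 8 tested genes of glutathione synthesis and recycling, 2 rose with CYT and 1 fell, with a median of 0.63. Chac1, which degrades glutathione, rose from 4.32 ± 0.60 to 90.3 ± 8.40 CPM (4.38) and was 10.1 ± 2.68 in IL-1βlow + CYT (-3.15 against CYT). Slc3a2, the heavy chain that cystine and amino acid transporters share, rose from 178 ± 8.43 to 724 ± 43.6 CPM (2.02) and was 151 ± 15.3 in IL-1βlow + CYT (-2.26 against CYT). Its cystine-carrying partner Slc7a11 was counted rarely, 14 to 35 times per untreated library, and was called only between IL-1βlow + CYT and CYT (-1.51, adjusted p = 0.00803), with 1.15 and adjusted p = 0.0243 for CYT. Glrx, glutaredoxin, went the other way, from 17.0 ± 2.58 to 7.03 ± 1.49 CPM with CYT (-1.27) and 24.5 ± 4.02 in IL-1βlow + CYT (1.79 against CYT).

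Of 16 glutathione peroxidases and transferases only 8 passed the filter on low counts, and 1 was called higher and 1 lower with CYT. The first, Gsta4, passed that filter only through the challenged groups, so that its call is no support for the list. This gene, a transferase that clears lipid aldehydes, was counted 0 to 3 times per untreated library and 42 to 65 times per CYT library, which is at least 15.2-fold higher when the reference is set at 3 counts per library. In IL-1βlow + CYT it was at least 10.1-fold higher than untreated. Gstm1 fell from 11.7 ± 2.23 to 2.42 ± 0.650 CPM with CYT (-2.28) and was 5.39 ± 1.40 in IL-1βlow + CYT, higher than in CYT (1.16) and lower than in untreated (-1.12) and in IL-1βlow (-1.33). The genes of this list lie in families of close paralogs, which counting by symbol can split between copies. Gpx1 and Gpx7, and Sod3 of the dismutase list, were listed with no count in any library, where 3 counts correspond to 0.149 to 0.185 CPM.

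Of 11 thioredoxins and peroxiredoxins only Txnip was called. It encodes a protein that binds and inhibits thioredoxin and is known to respond to glucose in β-cells. It fell from 170 ± 8.92 to 31.5 ± 3.12 CPM with CYT (log2 fold change -2.43, adjusted p = 4.56e-09) and stood at 219 ± 49.5 in IL-1βlow + CYT, higher than in CYT by 2.80 on the log2 scale (adjusted p = 1.03e-08). In IL-1βlow alone it was 259 ± 22.5 CPM (0.61, adjusted p = 0.0398), above the fold minimum but not past the p threshold. Of the 8 genes of NADPH supply only Idh2, mitochondrial isocitrate dehydrogenase, was called, with a rise of 1.05 under CYT. None of the 4 tested dismutase and heme genes was called in any comparison by edgeR's quasi-likelihood test, and 2 of them had an unadjusted p under 0.05 between IL-1βlow + CYT and untreated, beside 34.0% of all genes.

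Among 9 other genes known as NRF2 targets, 3 were called higher with CYT and none lower, with a median of 0.80. All 9 had an adjusted p under 0.01, beside 49.7% of all genes, 7 with a positive estimate and 2, Cbr1 and Cbr3, with a negative one. The 7 include Osgin1, which passed the filter on low counts only through CYT. In the other lists it was 10 of 12 for NRF2 regulation, 5 of 8 for glutathione synthesis and 6 of 8 for NADPH supply. It was 3 of 8 for peroxidases and transferases, with Gsta4 among them, 5 of 11 for thioredoxins and peroxiredoxins and 0 of 4 for dismutase and heme genes. Ephx1, microsomal epoxide hydrolase, rose from 9.11 ± 0.450 to 30.3 ± 5.63 CPM (1.73) and was 10.6 ± 2.22 in IL-1βlow + CYT (-1.51 against CYT). Osgin1, a growth inhibitor induced by oxidative stress, was counted 4 to 12 times per untreated and 40 to 82 times per CYT library (2.97). It passed the filter on low counts only through CYT, so that it had to differ, and without it 2 of the list were called higher. Aox1, aldehyde oxidase, rose from 3.37 ± 0.519 to 11.0 ± 2.24 CPM (1.70) and was 15.6 ± 1.95 in IL-1βlow + CYT. The latter was not called against CYT (0.50, adjusted p = 0.0359 in edgeR's quasi-likelihood test), though its libraries, 13.6 to 17.5 CPM, all stood above those of CYT, 9.35 to 13.5. Cbr1, a carbonyl reductase, followed Nqo1 in direction, from 30.9 ± 3.18 to 15.7 ± 3.24 CPM with CYT (-0.98, just under the fold minimum) and 34.6 ± 7.07 in IL-1βlow + CYT (1.14 against CYT, called). Sesn2, a stress-induced inhibitor of mTORC1, was 317 ± 40.8 CPM in CYT and 145 ± 17.5 in IL-1βlow + CYT (-1.13, called), with 0.86 for CYT against untreated. Ephx1, Aox1 and Sesn2 each overlap a LOC gene in GRCr8.

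**Figure D4:**
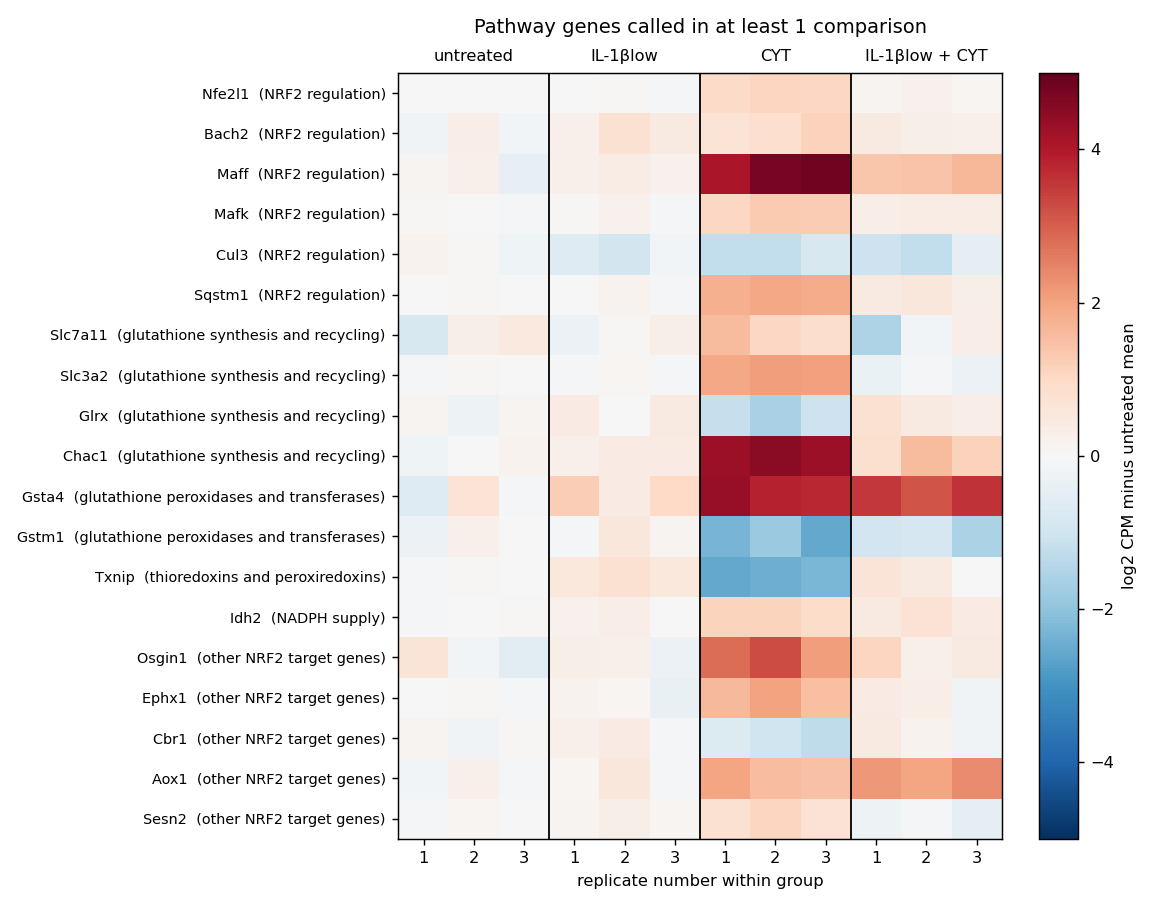
Log2 CPM minus the untreated mean (colour) of the 19 pathway genes called in at least 1 comparison, by library, with the list of each gene in brackets. Maff, Chac1 and Gsta4 are darkest red in the CYT columns and Txnip is darkest blue. The IL-1βlow + CYT columns are paler than the CYT columns for most genes, while Aox1 is red in both and somewhat redder in IL-1βlow + CYT.

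Genes with the most similar course over the 12 libraries were sought among 11496 genes, by the root mean square difference of log2 CPM after centring on the untreated mean. Nfe2l2 was closest to Tead3 (0.0822), Elf4 (0.0944) and Foxk1 (0.0999). Keap1 was closest to Pcbp1 (0.0383), Slc4a2 (0.0560) and Rpl22 (0.0593). For Hmox1 the nearest were farther away, Hdac11 (0.303), Notch2 (0.334) and Il18bp (0.358). Nqo1 was closest to Nbeal2 (0.133), Cbr1l1 (0.133) and Ccdc157 (0.144), the second of them named as a carbonyl reductase like Cbr1. Sod2 was closest to Dennd2b (0.124), Anks1b (0.139) and Xylt1 (0.159), and Srxn1 to Rrp1b (0.129), Sel1l (0.129) and Klhdc8b (0.139). Within the 10 genes, Hmox1 and Nqo1 were the farthest apart, at 2.20.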

How the data were processed

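PolyA RNA of 12 INS-1E libraries was prepared with a TruSeq kit. The authors used FastQC for quality control, rfastp for trimming, Rsubread for alignment to mRatBN7.2 and featureCounts for counting; the strand setting was not given in the sources used here. The deposited file gives raw, unnormalized counts for each symbol, and 0 of its columns were left unused. Groups were taken from the labels.

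Counts were analysed in R 4.3.3 with edgeR 4.0.16: a filter requiring CPM above 1 in 2 or more libraries (keeping 99.9% of all counts), TMM normalization, 1 quasi-likelihood fit of all 12 libraries (8 residual degrees of freedom, biological coefficient of variation 0.123), and Benjamini-Hochberg adjustment over all genes tested. Calls needed both an adjusted p under 0.01 and a log2 fold change, in either direction, of more than 0.6 for IL-1βlow against untreated or 1 otherwise, for the interaction too. These tests were checked on simulated data. All 10 genes, the pathway genes called in at least 1 comparison, and the 3 genes nearest to each of the 10 (mean log2 CPM above 2) may be named. The 10 genes, the lists and the markers were chosen with earlier results of these data known, so no count over a list is independent support. Alternatives were RLE factors, DESeq2 1.42.0, edgeR's exact test, other filters, other thresholds, glmTreat, the compared groups alone, a replicate block and leaving out each library. The labels do not say whether replicates came from separate cultures or days; within groups, libraries differed by more than counting noise (chi-square per degree of freedom 7.20 to 27.8). Same-numbered libraries deviated together in all 9 pairs among IL-1βlow, CYT and IL-1βlow + CYT (correlation 0.116 to 0.520). With untreated libraries they did so only in part. The pairing comes from the data and not from the labels. Promoter sequences are from RefSeq, GRCr8, and gene overlaps were read in that build, while counting used mRatBN7.2. Floors cover counting error only. Proteins were not analysed here.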

Additional observations from a re-analysis of the deposited data

Results flagged for a closer look

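The response to CYT differed between preconditioned and other cells, by the interaction in edgeR's quasi-likelihood test at an adjusted p under 0.01, for 4 of the 10 genes and 19 of the 60 pathway genes tested, beside 22.6% of all genes. Of the 19, 12 values were negative and 7 positive. Each value is the log2 fold change of CYT after IL-1βlow minus that without it. A negative value is thus a smaller rise, a larger fall, or a fall in place of a rise, after preconditioning. It was -1.05 for Nfe2l2 (adjusted p = 0.000119), -0.56 for Keap1 (adjusted p = 0.00499), -2.55 for Hmox1 (adjusted p = 2.43e-05) and -0.96 for Sod2 (adjusted p = 0.000169). Among the NRF2 regulators it was -0.89 for Nfe2l1, -1.07 for Bach2 (adjusted p = 0.00819), -3.36 for Maff, -0.72 for Mafg, -0.93 for Mafk and -1.47 for Sqstm1. Among the enzymes and transporters it was -2.25 for Slc3a2, -0.66 for Gss, -3.50 for Chac1, -0.71 for Idh2, -1.497 for Ephx1 and -1.30 for Sesn2. The value was positive for Glrx, at 1.502 (adjusted p = 0.000592), and Txnip, at 2.19 (adjusted p = 3.54e-06), both of which fell with CYT alone. It was also positive for Rbx1 (0.83), Gsk3b (0.43), Prdx1 (0.69), Me1 (0.54) and Nnt (0.50). Mafg, Gss and these 5 were called in no comparison and were named after their values were seen. Keap1, Sod2, Nfe2l1, Mafk and Idh2 did not reach the fold minimum of 1 for the interaction either.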

How the results depend on the processing

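Of 1240 values of the 10 genes recomputed under the alternatives, 1201 kept their side of the thresholds, 19 lost the call, 20 gained it and none of the called ones reversed; 42 uncalled values near 0 changed sign. With an adjusted p under 0.05 and no fold minimum, 6 of the 10 genes passed for CYT against untreated, beside 8926 of the 14324 genes tested. It was 3 for IL-1βlow + CYT against untreated, 3 against IL-1βlow and 5 for the interaction, beside 3124, 1855 and 5337 of the 14324. Of the 60 pathway genes tested, 44, 14, 10 and 28 passed in the same order. Another 34 passed between IL-1βlow + CYT and CYT, beside 7267 of the 14324. With glmTreat, which tests against the fold minimum itself, 1 of the 10 was called between IL-1βlow + CYT and CYT and 1 for the interaction. Nqo1 lost its call for CYT against untreated (adjusted p = 0.932 in glmTreat), where 1404 of the 14324 genes were called. Of the pathway genes 6 were called for IL-1βlow + CYT against CYT, 2 against untreated, 2 against IL-1βlow and 4 for the interaction. Over all genes these comparisons gave 457, 353, 229 and 182 calls in the same order. Txnip alone made the pathway count for IL-1βlow against untreated 1 under DESeq2, the exact test, no filter, the compared groups alone and an adjusted p under 0.05 (log2 fold changes 0.60 to 0.63).

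Leaving out 1 library at a time, the calls among the 10 genes ranged from 2 to 4 for CYT against untreated, 2 to 4 against CYT, 1 to 2 for IL-1βlow + CYT against untreated and 1 to 3 for the interaction, and stayed at 0 for IL-1βlow and 1 against IL-1βlow. Without CYT replicate 1, Nfe2l2 was called for CYT (1.03). Pathway counts ranged from 0 to 1 for IL-1βlow, 14 to 18 for CYT, 10 to 13 against CYT, 4 to 5 against untreated, 4 to 5 against IL-1βlow and 8 to 11 for the interaction.

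Over all groups, 13 of 18 same-numbered pairs had a correlation over 0.1 (mean 0.191, range -0.19 to 0.52; other pairs, mean -0.094), and 9 of 12 libraries lay nearest to their own number. The 5 pairs below 0.1 all held an untreated library. Untreated replicate 2 correlated with its number at 0.157 to 0.181, and untreated replicate 3 at -0.19 to -0.12. The numbers thus pair the comparisons of IL-1βlow + CYT with CYT and with IL-1βlow. They pair those with untreated cells, and the interaction, only in part. Adding a replicate block gave, among the 10 genes, 0 calls for IL-1βlow, 3 for CYT, 4 against CYT, 1 for IL-1βlow + CYT against untreated, 1 against IL-1βlow and 2 for the interaction, as without it, and it changed no call of a single one of the 10. The pathway calls with the block were 0, 16, 12, 5, 4 and 10 in the same order. Over all genes the calls were 141, 3246, 1870, 949, 611 and 1767 with the block. Without it they were 62, 3096, 1785, 858, 556 and 1530.

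Over all genes, IL-1βlow against untreated gave 62 calls, 138 with DESeq2, 137 with the exact test, 229 without a filter, 141 with the block, 193 at an adjusted p under 0.05, 10 with glmTreat and 16 to 87 without 1 library. At an adjusted p under 0.05 with no fold minimum, CYT against untreated gave 8926, IL-1βlow + CYT against CYT 7267, against untreated 3124 and against IL-1βlow 1855, and the interaction 5337; with glmTreat these were 1404, 457, 353, 229 and 182. With 3 libraries a group, effects under the fold minimum rest on few values.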

Other observations

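Cat and Pir, which encodes the iron-binding nuclear protein pirin, differed by a root mean square of 0.0513 on the log2 scale over the 12 libraries, while the fitted difference of Cat from untreated was -0.07 in IL-1βlow, 0.04 in CYT and -0.01 in IL-1βlow + CYT. The next genes for Cat were Wls (0.1005) and Rps27a (0.121). Gclm lay nearest to Mindy3 (0.126), Prph (0.136) and Tfb1m (0.151), Txnrd1 to Rps13 (0.0497), Cs (0.0532) and Tjap1 (0.064), and Sod1 to Trap1 (0.0419), Dhx16 (0.0432) and Tufm (0.0516).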
